A study of Cicer arietinum with 8 samples.

Results

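The most abundant root transcripts of chickpea were taken as the 100 loci with the highest mean FPKM over the 4 groups of the study, among the 27876 loci that carry a gene name and out of 30692 loci in all. FPKM is the number of sequenced fragments assigned to a locus, divided by its transcript length and by the size of the library, so that levels of different genes can be set side by side per length. The 4 groups were ST salinity stress, ST control, SS salinity stress and SS control, where ST is the salinity tolerant genotype JG62 and SS the salinity sensitive genotype ICCV2. Seedlings grown in a chamber were given 80 mM NaCl every other day over 6 days from the age of 12 days, or water without salt, and whole roots were taken at 18 days, although the text of the series speaks of seedlings of 17 days. Each group had 2 libraries of 49 bp single-end reads, and the authors deposited 1 FPKM value for each locus in each group, into which both libraries had been merged. No spread between libraries, SD or test can therefore be had from these values, no difference below was checked against replicates, and these values do not give the depth of the libraries. The tests that the study ran on its libraries were not used here. Each genotype is a single line, and in whole roots a lower share of a cell type and less RNA per cell cannot be told apart.

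In plant tissues a small set of genes supplies a large part of the messenger RNA. Such sets commonly hold genes for ribosomal proteins, translation elongation factors, ubiquitin, histones, water channels, metallothioneins and cell wall proteins, which serve protein synthesis, water uptake and wall growth in the root. Salt in the soil withdraws water from the root and loads it with sodium ions, and the root is the first organ to meet it. The deposited table names genes by Ca_ numbers and gives no product. None of the 105 gene names of the members was found among the 29938 genes of the RefSeq table of the chickpea assembly Cicar.CDCFrontier_v2.0, so that no function, position or sequence is given for them here, and the labelled tissue was not checked against root markers. Of the 100 members, 95 carried 1 gene name and 5 carried 2, whose FPKM belongs to both genes together. The study discusses 17 genes by identifier, and none of them was a member, the highest being Ca_20130 at rank 522.

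The 100 members took up nearly a constant part of the FPKM total, at 22.8% to 24.0%. Their share of the summed FPKM was 23.5% in ST salinity stress and 23.5% in ST control, and 24.0% in SS salinity stress against 22.8% in SS control. These are the loci the ranking selected, so the size of the share describes the list and was not tested. The next 100 loci held 7.51% in ST salinity stress, 7.54% in ST control, 7.98% in SS salinity stress and 7.48% in SS control. The loci needed to reach 50% of the summed FPKM numbered 612, 622, 598 and 668 in the same groups. The root transcriptome was therefore about as concentrated in all 4 groups, with the fewest loci in SS salinity stress and the most in SS control.

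Mean FPKM of the members ranged from 32957 down to 1254, with a median of 1898, against a median of 5.61 over all loci of the table. Only 4 members averaged at least 10000 and 9 at least 5000, whereas 56 averaged less than 2000. The lowest value of any member in any group was FPKM 941, in Ca_04788 in ST control. Of the members, 77 were among the 100 highest named loci in every single group, 13 in 3 groups and 10 in 2 groups. Every member was thus among the 100 highest of at least 2 groups, which does not show that it would keep its place without 1 of them.

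Ca_05165 was the most abundant transcript in every group, with FPKM 33732 in ST salinity stress, 41673 in ST control, 27648 in SS salinity stress and 28775 in SS control. It made up 2.43% of the summed FPKM in ST salinity stress and 3.21% in ST control, and 2.06% in SS salinity stress and 2.21% in SS control. Its level was 1.24-fold lower in ST salinity stress than in ST control, which is under the 1.5-fold used below, and the difference of -7941 FPKM was the largest between stress and control of any member in either genotype. Without Ca_05165 the other 99 members held 21.1% of the summed FPKM in ST salinity stress and 20.3% in ST control, and 22.0% in SS salinity stress and 20.6% in SS control. The equal shares of the members in the 2 ST groups thus hold a lower Ca_05165 and higher values of other members.

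The next ranks were held in the same order in all 4 groups by the locus of Ca_21944 and Ca_21945, by Ca_15740 and by Ca_13501. The Ca_21944 and Ca_21945 locus had FPKM 23851 in ST salinity stress, 19333 in ST control, 22649 in SS salinity stress and 19947 in SS control. Ca_15740 had 14992 in ST salinity stress, 12215 in ST control, 18829 in SS salinity stress and 13350 in SS control. Both loci were higher under salinity stress in both genotypes, by 1.14 to 1.41 times. Ca_13501 was steadier, with FPKM 10809 in ST salinity stress, 9496 in ST control, 10232 in SS salinity stress and 9538 in SS control.

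**Figure D1:**
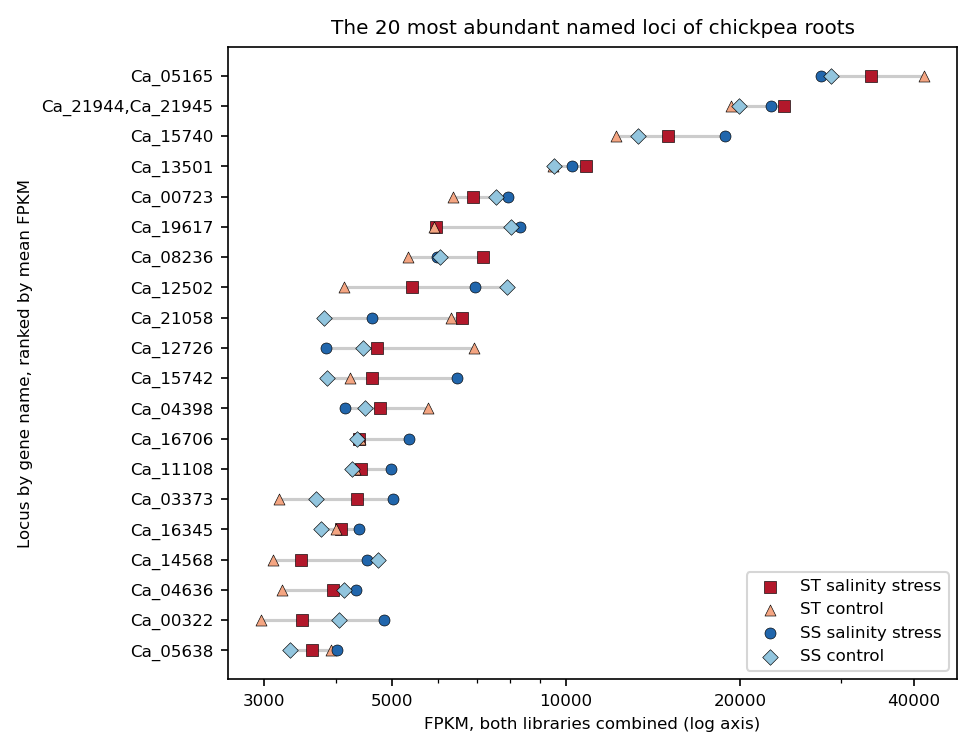
FPKM of the 20 members with the highest mean, on a log axis, with 1 symbol per group (both libraries combined) and loci ordered downward by mean FPKM. The first 4 loci keep their order in every group, and Ca_05165 lies between 27648 and 41673.

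From the fifth rank on, the order differed between the groups. Ca_00723 had FPKM 6906 in ST salinity stress, 6370.5 in ST control, 7918 in SS salinity stress and 7553 in SS control. Ca_19617 had 5953 in ST salinity stress, 5909 in ST control, 8336 in SS salinity stress and 8018 in SS control. Both were lower in the ST genotype than in the SS genotype with and without salt, Ca_19617 by 1.40 times under stress. Ca_08236 had 7177 in ST salinity stress, 5327 in ST control, 5980.5 in SS salinity stress and 6050 in SS control, so that ST salinity stress alone stood above the other groups. Ca_12502, Ca_21058 and Ca_12726 complete the first 10 and differed at least 1.5-fold between the genotypes in the control, as given below.

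At the end of the list, Ca_18867, Ca_25217 and Ca_10624 had mean FPKM of 1275, 1260.3 and 1253.7. The first loci left out, Ca_07255, Ca_04993 and Ca_17553, had means of 1253.4, 1253.2 and 1241. The list therefore stops within a run of loci of nearly equal level, and the place of the last members has no meaning of its own.

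The ratio of the highest to the lowest of a member's 4 values had a median of 1.28 and ranged from 1.04 to 2.88. It was under 1.2 for 29 members and under 1.5 for 70, and it reached 2 for 6. The 18918 loci that reached an FPKM of 1 in all 4 groups had a median of 1.31. Of them 31.1% were under 1.2, 70.3% under 1.5 and 11.7% at 2 or more. The loci past rank 1000 and up to rank 5000 had a median of 1.23, with 80.4% under 1.5 and 7.18% at 2 or more. By the median and the share under 1.5, the members were thus not steadier across the 4 groups than loci of middle abundance. Their share at 2 or more was slightly smaller, which was not tested.

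The steadiest member was Ca_21248, with FPKM 2046 in ST salinity stress, 2089 in ST control, 2123 in SS salinity stress and 2079 in SS control. It was followed by Ca_00109 with values between 1908 and 2039, by Ca_10115 between 1543 and 1654, by Ca_13766 between 1493 and 1619 and by Ca_15001 between 1748 and 1912. In these 5 transcripts the highest group exceeded the lowest by 1.04 to 1.09 times.

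Most of the abundant transcripts, like most loci of the table, lay close to their control level in SS salinity stress. At a ratio of 1.5-fold or more, 3 of 100 members were higher and 1 was lower in SS salinity stress, and 72 lay within 1.2-fold of SS control, against 68.0% of all loci. Over all loci, counting those whose higher value reached an FPKM of 1, 10.7% passed the same rule, 4.44% toward higher and 6.23% toward lower FPKM. The members were chosen on values that enter these ratios, so the counts stand side by side without a reading. When the 100 loci were chosen by the ST groups only, which do not enter the SS ratio, 4 were higher and 1 was lower in SS salinity stress. Of the loci past rank 1000 and up to rank 5000, 3.1% passed.

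Ca_15742 had the largest rise, with FPKM 6460 in SS salinity stress against 3848 in SS control, which is 1.68-fold. In the ST genotype it had 4609 in ST salinity stress and 4229 in ST control, close to the level of SS control. Ca_13637 had 2238 in SS salinity stress against 1399.8 in SS control (1.60-fold), and 2191 and 1907 in ST salinity stress and ST control. Ca_06357 had 2451 in SS salinity stress against 1587 in SS control (1.54-fold), and 1816 and 1396 in ST salinity stress and ST control; it lay just under 1.5-fold with the columns scaled to the same sum. All 3 were also higher under stress in the ST genotype, by less than 1.5-fold. Just under the threshold, Ca_13629 was 1.44-fold and Ca_15740 1.41-fold higher in SS salinity stress.

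Ca_00694 was the only member at least 1.5-fold lower under stress in the SS genotype. Its FPKM was 1244 in SS salinity stress against 2213 in SS control, or 1.78 times lower, and it was 1261 in ST salinity stress and 1351 in ST control. The SS control value stood apart from the other 3, which lay between 1244 and 1351. Next in this direction was Ca_05816, with 1811 in SS salinity stress against 2518 in SS control (1.39 times lower).

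Without regard to size, 69 members were higher and 31 lower in SS salinity stress than in SS control, while 85 of the next 100 loci and 45.5% of all loci were higher. By the other scalings between 65 and 75 members were higher. The median log2 ratio was 0.10 over the members and -0.026 over all loci, a distance of 0.13. It was 0.10 for the next 100 loci, 0.050 for the 300 after them, 0.019 for the following 500 and -0.0015 for the 4000 loci up to rank 5000. In the SS genotype the median ratio was therefore lower in each class of lower abundance beyond the first 200 loci. As deposited, Ca_15740, the locus of Ca_21944 and Ca_21945, and Ca_15742 were together higher by 10793 FPKM in SS salinity stress.

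In the ST genotype 6 of 100 members were at least 1.5-fold higher in ST salinity stress and none was lower, while 62 lay within 1.2-fold of ST control, against 63.3% of all loci. Over all loci the rule was passed by 13.4%, with 7.79% higher and 5.63% lower. Chosen by the SS groups only, the 100 loci gave 4 higher and 0 lower. Past rank 1000 and up to rank 5000 the share was 6.53%. The absence of lower members depends on the scaling of the columns: scaled to the same sum, 5 members were higher, without Ca_13561, and 2 were lower, and by median-ratio or upper-quartile scaling 6 were higher and 1 was lower.

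**Figure D2:**
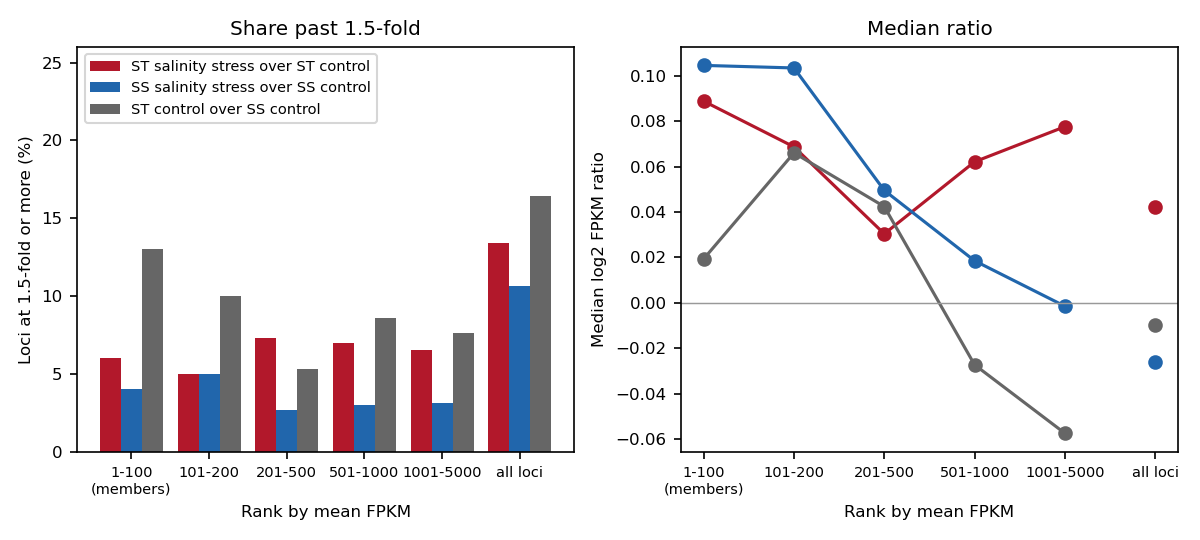
Left, percent of loci at 1.5-fold or more in either direction (bars, from 0) by rank of mean FPKM and for all loci whose higher value reached an FPKM of 1. Right, the median log2 FPKM ratio of the same sets. The members stand at 6% (ST) and 4% (SS) under salinity stress and at 13% between the controls.

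Of the 6 higher members, 4 were lower under stress in the SS genotype, by 1.02 to 1.19 times. Ca_24014 had FPKM 2976 in ST salinity stress against 1614 in ST control (1.84-fold), and 1203 in SS salinity stress against 1239 in SS control. Ca_21892 had 4915 in ST salinity stress against 2789 in ST control (1.76-fold), and 1709 in SS salinity stress against 1746 in SS control. Ca_05270 had 2819 in ST salinity stress against 1691 in ST control (1.67-fold), and 1000.6 in SS salinity stress against 1190.2 in SS control. All 3 had their highest value in ST salinity stress and their next highest in ST control. Ca_13561 followed the same order, with 5870.5 in ST salinity stress against 3732 in ST control (1.57-fold), and 2247 in SS salinity stress against 2563 in SS control.

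The other 2 members had a low ST control value. Ca_04788 had FPKM 1682 in ST salinity stress against 941 in ST control (1.79-fold), and 1845 in SS salinity stress against 1773 in SS control. Ca_01140 had 2279.9 in ST salinity stress against 1331 in ST control (1.71-fold), and 2615 in SS salinity stress against 2010.0 in SS control. In both, ST control was the lowest of the 4 values, and ST salinity stress lay below both SS groups in Ca_04788 and between them in Ca_01140.

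Between 1.4-fold and 1.5-fold higher in ST salinity stress were Ca_09192 (1.48-fold), Ca_24258 (1.47-fold), Ca_18257 (1.47-fold) and Ca_03297 (1.47-fold). On the lower side, Ca_12726 had FPKM 4704 in ST salinity stress against 6930.4 in ST control (1.47 times lower), and 3835 in SS salinity stress against 4456 in SS control. Ca_28211 had 1777 in ST salinity stress against 2557 in ST control (1.44 times lower), and 2126 in SS salinity stress against 2367 in SS control. These 2 loci are those that pass the threshold when the columns are scaled to the same sum, and both were lower under stress in the SS genotype too.

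Of all members, 68 were higher and 32 lower in ST salinity stress at any size, while 68 of the next 100 loci and 56.9% of all loci were higher. With the columns scaled to the same sum, 49 members were higher and 51 lower, and by median-ratio and upper-quartile scaling 58 and 56 were higher. The median log2 ratio of 0.089 compares with 0.042 over all loci, a distance of 0.046. The summed FPKM of all loci was 1385523 in ST salinity stress and 1297517 in ST control, and 1342256 in SS salinity stress and 1302695 in SS control. When every column was scaled to the same sum, the median of the members was -0.0059 in the ST genotype and 0.061 in the SS genotype. The sign of the small median in ST thus does not hold across scalings. The median over all loci moved too, to -0.053 in ST by the same sum. By median-ratio scaling the ST medians were 0.052 over the members and 0.0052 over all loci, and by upper-quartile scaling 0.033 and -0.014. The members' median thus lay above that of all loci by each scaling, which was not tested.

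No member passed 1.5-fold under stress in both genotypes. Only 4 members passed it in SS and 6 in ST. The share of all loci past it in both was not counted, so this carries no reading. At any size, 52 members were higher under stress in both, 15 were lower in both and 33 differed in sign between the genotypes. Of the 19745 loci that reached the FPKM minimum in both genotypes, 28.9% were higher in both and 44.6% differed in sign. Of the next 100 loci, 56% were higher in both and 41% differed in sign. These counts are of the values as deposited, and the sign of the ST response moves with the scaling as given above.

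**Figure D3:**
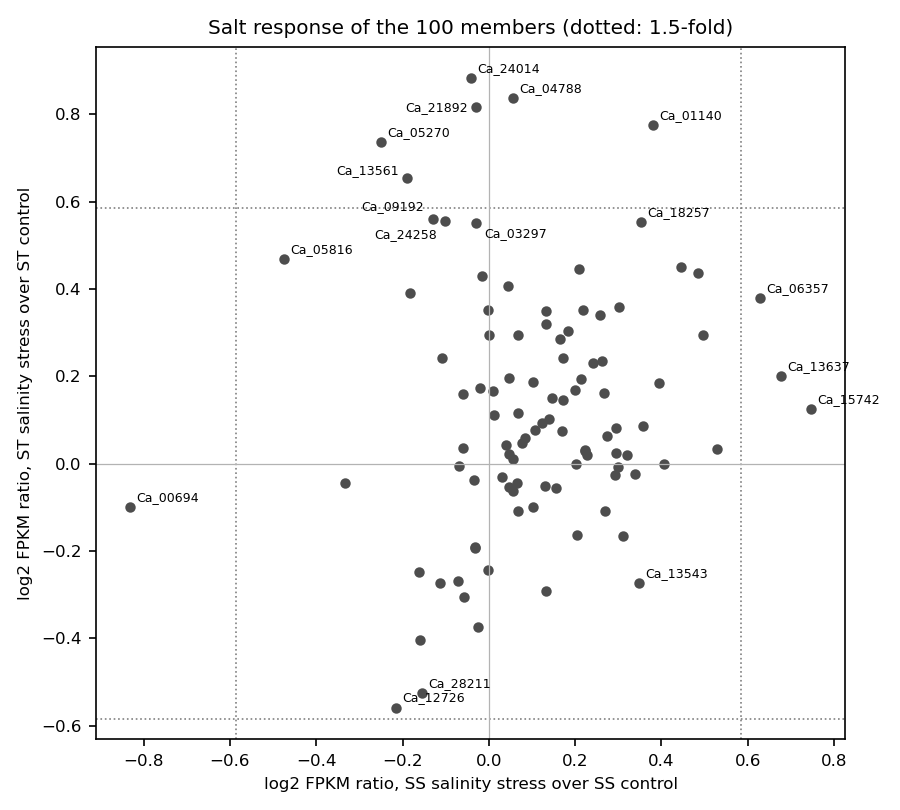
Log2 FPKM ratio of salinity stress to control in the ST genotype (vertical axis) against the SS genotype (horizontal axis), 1 point per member, with dotted lines at 1.5-fold. The 6 points above the upper line and the 4 beyond the side lines are different loci, and the matching share over all loci was not counted.

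Salt responses of opposite sign that lay at least 1.5-fold apart were seen at 8 members, against 12.0% of all loci. In 7 of them the ST genotype was higher and the SS genotype lower under stress, and in 1 the reverse. Over all loci, 1500 had the first direction and 869 the reverse. The counts were 5 and 3 for the next 100 loci, 21 and 4 for the 300 after them, and 37 and 2 for the following 500. The lean toward the first direction was therefore not particular to the members. The 7 were Ca_05270, Ca_05816, Ca_24014, Ca_21892, Ca_13561, Ca_09192 and Ca_24258, with log2 responses in ST above those in SS by 0.99, 0.94, 0.92, 0.85, 0.84, 0.69 and 0.66. The reverse case was Ca_13543, with FPKM 1263 in ST salinity stress against 1527 in ST control and 1461 in SS salinity stress against 1149 in SS control. The members' share was no higher than that of all loci, and the difference between the genotypes has no test at any of these loci. The SS log2 ratio was -0.48 at Ca_05816 and between -0.25 and -0.031 at the other 6 of the 7. These counts were not repeated by other scalings.

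Except for Ca_05816, the 7 loci had the same order of groups: ST salinity stress highest, then ST control, then SS control, and SS salinity stress lowest. Ca_09192 had FPKM 5053 in ST salinity stress, 3425 in ST control, 2758 in SS salinity stress and 3019 in SS control. Ca_24258 had 3329 in ST salinity stress, 2266 in ST control, 1417 in SS salinity stress and 1519 in SS control. These 6 loci together held 1.80% of the summed FPKM in ST salinity stress, 1.196% in ST control, 0.770% in SS salinity stress and 0.866% in SS control. They were picked out after their values were seen. A seventh member, Ca_27238, had the same order within a narrow range from 1721 to 2063. This order of the groups was found at 7 of 100 members, at 4% of the next 100 loci and at 8.31% of the 20535 loci that reached an FPKM of 1 anywhere.

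Ca_05816 had another profile. Its FPKM was 1873 in ST salinity stress, 1354 in ST control, 1811 in SS salinity stress and 2518 in SS control, so that the stressed groups of both genotypes nearly met between controls that lay 1.86-fold apart.

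**Figure D4:**
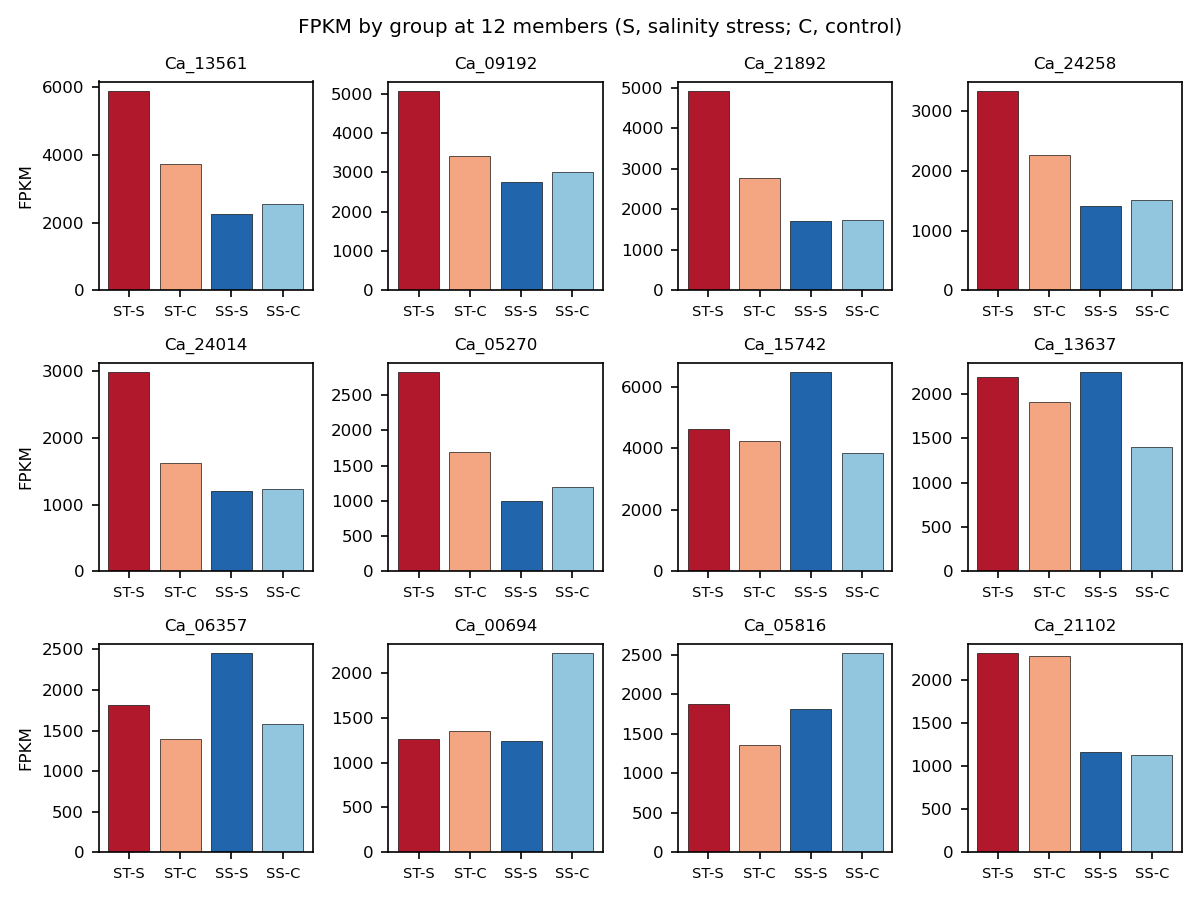
FPKM (bars from 0, both libraries combined) of 12 members in ST salinity stress (ST-S), ST control (ST-C), SS salinity stress (SS-S) and SS control (SS-C). The first 6 panels show loci highest in ST salinity stress and lowest in SS salinity stress. Ca_27238, with the same highest and lowest groups, is not drawn. Ca_21102 has ST levels of 2314 and 2279 and SS levels of 1168 and 1132.

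The ST control values enter both the stress ratio of ST and the comparison of the controls, so the 2 are not independent. Between the controls, 13 of 100 members passed 1.5-fold, of which 4 were higher and 9 were lower in ST control than in SS control. By median-ratio scaling 5 were higher and 8 lower, and by upper-quartile scaling 5 and 7. Over all loci, 16.4% passed the rule, 8.22% higher and 8.19% lower, and past rank 1000 and up to rank 5000 the share was 7.63%. The median log2 ratio was 0.019 over the members and -0.0097 over all loci.

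Ca_21102 had the largest difference and was the only member past 2-fold. Its FPKM was 2279 in ST control against 1132 in SS control (2.01-fold), and 2314 in ST salinity stress against 1168 in SS salinity stress (1.98-fold). Salt left it within 1.03-fold of the control in each genotype, so that this locus separated the genotypes and not the treatments. Ca_21058 was 1.66-fold higher, with 6321 in ST control against 3815 in SS control, and 1.43-fold higher under stress, with 6609 in ST salinity stress against 4614 in SS salinity stress. Ca_12726 was 1.56-fold and Ca_21892 1.60-fold higher in ST control.

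The 9 lower members were led by Ca_12502, with FPKM 4123 in ST control against 7893 in SS control (1.91 times lower), and 5403 in ST salinity stress against 6949 in SS salinity stress. Ca_04788 was 1.89 times and Ca_05816 1.86 times lower in ST control. Ca_03297 had 958 in ST control against 1638 in SS control (1.71 times lower), and 1404 in ST salinity stress against 1605 in SS salinity stress. In each of these loci the gap between the genotypes was narrower under stress, but they were picked by a large gap in the control. Ca_00694 was 1.64 times lower in ST control. Ca_25936 had 2199.9 in ST control against 3494 in SS control (1.59 times lower), and 2132 in ST salinity stress against 2773 in SS salinity stress. The remaining 3, Ca_02533, Ca_14568 and Ca_01140, were between 1.51 and 1.55 times lower.

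**Figure D5:**
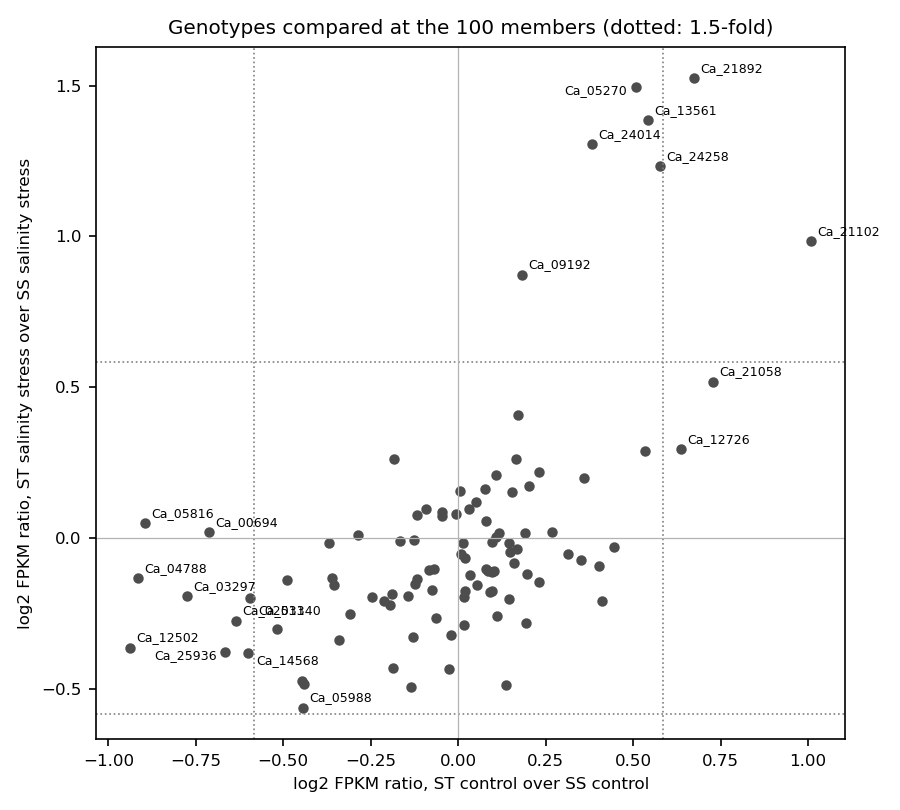
Log2 FPKM ratio of the ST to the SS genotype under salinity stress (vertical axis) against the controls (horizontal axis), 1 point per member, with dotted lines at 1.5-fold. All 9 points left of the left line, which were picked by their control ratio, lie above the lower line, and 7 points lie above the upper line.

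Under salinity stress 7 members were at least 1.5-fold higher in the ST genotype than in the SS genotype and none was lower, against 11.0% and 6.59% of all loci, or 17.6% in either direction. By each of the 3 scalings tried, 7 were higher and 1, Ca_05988, was lower. The 7 were Ca_21892 (2.88-fold), Ca_05270 (2.82-fold), Ca_13561 (2.61-fold), Ca_24014 (2.47-fold), Ca_24258 (2.35-fold), Ca_21102 (1.98-fold) and Ca_09192 (1.83-fold). Ca_05988 had FPKM 1107 in ST salinity stress against 1634 in SS salinity stress (1.48 times lower), and 1156 in ST control against 1573 in SS control.

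Of the 9 members lower in ST control, 7 were still lower in ST salinity stress than in SS salinity stress, none of them by 1.5-fold. Of the 4 higher in ST control, all 4 were higher under stress and 2 by at least 1.5-fold. These members were picked by a large control ratio, and the same counts over all loci were not made. The counts therefore carry no reading about the members. The median log2 ratio under stress was -0.10 over the members and 0.048 over all loci, so that the typical member was lower in the ST genotype under stress although every member past 1.5-fold was higher.

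In 48 members the highest of the 4 values was in SS salinity stress. It was in ST salinity stress for 25, in ST control for 19 and in SS control for 8. Of the 18918 loci that reached an FPKM of 1 in all groups, 22.7% had their highest value in SS salinity stress, 30.5% in ST salinity stress, 23.9% in ST control and 23.0% in SS control. The next 100 loci resembled the members, with 47% in SS salinity stress. By the other scalings between 44 and 51 members were highest in SS salinity stress. The lowest value was in ST control for 39 members, in SS control for 35, in SS salinity stress for 14 and in ST salinity stress for 12, against 29.7%, 20.6%, 31.0% and 18.7% of all those loci in the same order. With the columns scaled to the same sum these counts were 32, 24, 13 and 31, so the place of the lowest value depends on the scaling.

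In 7 members the gene name was also given to a second locus, and how the reads of the gene were divided between them was not tested. Ca_15740 had a second locus at rank 209 with FPKM 769 in ST salinity stress, 745 in ST control, 996 in SS salinity stress and 630.2 in SS control, a log2 ratio under stress of 0.047 in the ST genotype and 0.66 in the SS genotype. At its main locus these ratios were 0.30 and 0.50. Ca_09771 had a second locus at rank 264 with a mean FPKM of 666, against 1319 at the member. The second loci of the other 5 had mean FPKM between 4.36 and 223.

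The ranking left out loci without a gene name. Had all loci been ranked, 9 unnamed loci would have replaced the last 9 members, and the share of the summed FPKM would have been between 23.7% and 25.3%. Of these, XLOC_020062 had log2 ratios under stress of 1.43 in SS and 0.91 in ST, and 1.88 between the controls. XLOC_019945 had 1.12 under stress in ST, and XLOC_027876 had 1.18 between the controls. The other unnamed loci were under 1.5-fold under stress in each genotype and between the controls. Between the stressed groups the log2 ratio of ST over SS was 1.39 at XLOC_019945, 1.35 at XLOC_020062, 0.91 at XLOC_025907 and 0.85 at XLOC_027876. The remaining unnamed loci were under 1.5-fold there too. The counts given above hold for named loci only.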

How the data were processed

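Root RNA of the 8 libraries was sequenced as 49 bp single-end reads. Per the labels and the study's methods, the authors kept reads of Phred 20 or better, aligned these to the Kabuli chickpea genome using TopHat2 2.1.1 and estimated expression with Cufflinks and Cuffdiff 2.2.1, for which the paper gives version 2.1.1. The deposited values are FPKM, computed by the authors for 30692 loci with both libraries of a group combined. The scaling between libraries is not given in the sources used here. The FPKM values do not give the depth per library, so no interval is given.

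Loci with a gene name were ranked by the mean of the 4 columns. A locus counted as past the threshold when its plain FPKM ratio was 1.5 or more in either direction and its higher value reached an FPKM of 1. No pseudocount was added. Log2 ratios are of stress over control, or of ST over SS. No test was run, since each group has 1 value. The members, lists and rules were chosen with earlier results of these data known. Genes named by rule are the 10 with the highest mean, up to 10 with the largest ratios past 1.5-fold in each stress comparison and between the controls, ranks 98 to 103 and the 5 steadiest members. Other names were picked after their values were seen. Functional classes and root markers could not be joined to the Ca_ names and were not used. Steps were checked on simulated data. Python 3.11.15, pandas 2.3.3, numpy 2.4.6 and matplotlib 3.10.9 were used. Alternatives were 3 scalings of the columns, other rankings and list sizes, a pseudocount of 1, a 2-fold threshold and other FPKM minimums.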

Additional observations from a re-analysis of the deposited data

Results flagged for a closer look

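Salt responses of opposite sign in the 2 genotypes, at least 1.5-fold apart, were picked out at 8 members, and the difference was not tested because each group has 1 value. The log2 ratio of stress to control in the ST genotype minus that in the SS genotype was 0.99 for Ca_05270, 0.94 for Ca_05816, 0.92 for Ca_24014, 0.85 for Ca_21892, 0.84 for Ca_13561, 0.69 for Ca_09192, 0.66 for Ca_24258 and -0.62 for Ca_13543. The SS ratio alone was -0.48 for Ca_05816, 0.35 for Ca_13543 and between -0.25 and -0.031 for the other 6, so that some lay close to control. Among all loci 12.0% met the same condition, 1500 with the ST genotype higher under stress and 869 with the SS genotype higher. The count was not repeated by other scalings.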

How the results depend on the processing

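No paired analysis was possible because each group has a single column of combined libraries, which carries no replicate number, and for the same reason no replicate could be left out. A result counted as moved when its value differed by more than 1.5 times or in sign, and 110 of 132 values did not move. Some of these could hardly move. A share of a column's sum stays the same when that column is scaled. A pseudocount of 1, used for 8 of the values, is small beside member FPKM of 941 or more. The total is therefore no measure of stability. A 2-fold threshold left 0 members higher and 0 lower in the SS genotype under stress, 0 higher in the ST genotype, and 1 higher and 0 lower in ST control. Ranking only loci with 1 gene name gave 2 lower members in SS. The members lower under stress in ST numbered 1 by median-ratio and by upper-quartile scaling and 2 with columns scaled to the same sum, and the members lower in ST than SS under stress numbered 1 by each of these. Median log2 ratios of the members became 0.061 in SS (same sum), 0.052 (median-ratio), 0.033 (upper-quartile) and -0.0059 (same sum) in ST, 0.029 (median-ratio) and 0.055 (upper-quartile) between the controls, and -0.15 (median-ratio) between the stressed groups. The share of all loci past 1.5-fold was 17.8% without a filter and 6.45% at FPKM of at least 5 in SS, and 20.4% without a filter in ST. Added after seeing the data were scaling to the same sum, the shares without Ca_05165 and the counts between the stressed groups. So were the scalings of the highest group and of the counts by sign, and the settings for single members. Among log2 ratios of single members near or past the threshold, 230 of 244 kept their side of it, and none changed sign. Of these 244, 61 came from the pseudocount of 1, which barely alters values this high. The cause of these shifts was not tested. Combined columns and unknown depth limit every comparison.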
